A study of Mus musculus with 15 samples.

Results

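The genes described here encode proteins of the mitochondrial ribosome, and were taken as every row of the expression table whose symbol begins with Mrpl or Mrps followed by a number and at most 1 letter. This gave 78 genes of 18510 rows, of which 51 encode proteins of the large subunit and 26 proteins of the small subunit. Mrps18a and Mrps30 carry small-subunit symbols but are proteins of the large subunit and were counted there. Mrps36, now assigned to the alpha-ketoglutarate dehydrogenase complex, was counted in neither. Messenger RNA had been measured by RNA sequencing in whole livers of 15 wild-type mice, 5 in each of 3 groups. Ctrl mice received a control diet and Alc mice an alcohol diet, while Alc UA mice received the alcohol diet together with UA, which the labels do not expand.

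The mitochondrial ribosome translates the few messenger RNAs encoded by mitochondrial DNA, all of them for subunits of the respiratory chain complexes and ATP synthase. Its RNA comes from the mitochondrial genome, but its proteins are encoded in the nucleus, made in the cytosol and imported. Some descend from bacterial ribosomal proteins and the others were gained in the mitochondrial lineage. Hepatocytes hold many mitochondria and oxidise acetaldehyde, the first product of ethanol, mainly inside them. In rats, long-term ethanol feeding is known to lower protein synthesis by liver mitochondria.

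Levels are in FPKM, fragments scaled for transcript length and for the fragments mapped in a library, and read depth is unknown. Summed over all rows, a Ctrl library held 627344 ± 35388 FPKM (SD, n = 5), an Alc library 568776 ± 16070 and an Alc UA library 590205 ± 12752. A log2 fold change is given with its SE and refers to log2(FPKM + 1), so the change of a gene with few FPKM comes out too small. Counts are given on the deposited scale and again after dividing each library by a median-of-ratios size factor, which was 0.929 to 1.28 in Ctrl, 0.904 to 1.08 in Alc and 0.840 to 0.992 in Alc UA. This scaling moved the median of all 10959 tested genes in Alc against Ctrl from -0.12 to 0.02. A value with no scale named is the deposited one. A gene was called where the limma p-value, adjusted over all tested genes, was under 0.05. All 8 hepatocyte markers were expressed, with summed levels of 39344 to 62952 FPKM in Ctrl and 52147 to 68537 in Alc. Of 11 sinusoidal endothelial markers 10 fell in Alc against Ctrl, their sum being 129 to 355 FPKM in Ctrl and 61.1 to 126 in Alc, and none was at 0 in every library. All 6 erythroid markers fell too, from sums of 1433 to 8809 FPKM to sums of 576 to 989. Of all tested genes 22.8% fell and 10.6% rose. Of the 8 hepatocyte markers 2 fell and 2 rose, and of 9 Kupffer markers 0 were called. Falls were 1 of 9 stellate, 1 of 4 tested cholangiocyte and 4 of 5 tested B and plasma cell markers. They were 2 of 2 tested T and NK cell markers and 1 of 2 tested neutrophil markers. The part of these cell types in the values below was not tested, and in whole liver fewer cells of a type and less RNA per cell cannot be told apart.

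All 78 genes reached 1 FPKM in 5 or more libraries, which was the condition for testing a gene. Mrpl12, a large-subunit protein that also binds the mitochondrial RNA polymerase, had the highest level, at 91.7 ± 9.45 FPKM in Ctrl, 90.9 ± 9.50 in Alc and 84.8 ± 9.60 in Alc UA (SD, n = 5 each). It was followed by Mrps21, a small-subunit protein, with a mean over all libraries of 77.7 FPKM, Mrpl18 with 68.1 and Mrpl24 with 65.5. At the low end stood Mrpl57 with 6.89 FPKM, Mrpl35 with 5.58, Mrps25 with 3.95 and Mrpl19 with 2.74. The order of single genes is loose where neighbours are close, since Mrps21 ranged from 74.9 to 160 FPKM within Ctrl alone and Mrpl18 from 59.4 to 139. Proteins of the same particle, present together in the assembled ribosome, were thus represented by messenger levels that spanned more than an order of magnitude.

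Averaged over the 78 genes, the log2 level was 4.69 ± 0.14 in Ctrl, 4.47 ± 0.13 in Alc and 4.37 ± 0.14 in Alc UA (SD, n = 5 each) as deposited. Ctrl libraries lay between 4.53 and 4.85, Alc libraries between 4.31 and 4.63 and Alc UA libraries between 4.21 and 4.53, so that the Alc and Ctrl ranges overlapped and the Alc UA and Ctrl ranges met only at Alc UA 3 and Ctrl 5. After median-of-ratios scaling the averages were 4.56 ± 0.16, 4.50 ± 0.04 and 4.47 ± 0.05. On that scale the 5 Ctrl libraries, from 4.32 in Ctrl 3 to 4.73 in Ctrl 4, enclosed all 10 libraries of the alcohol groups. The messengers of the mitochondrial ribosome made up 0.387% ± 0.035 of the summed FPKM in Ctrl, 0.353% ± 0.033 in Alc and 0.318% ± 0.036 in Alc UA.

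**Figure D1:**
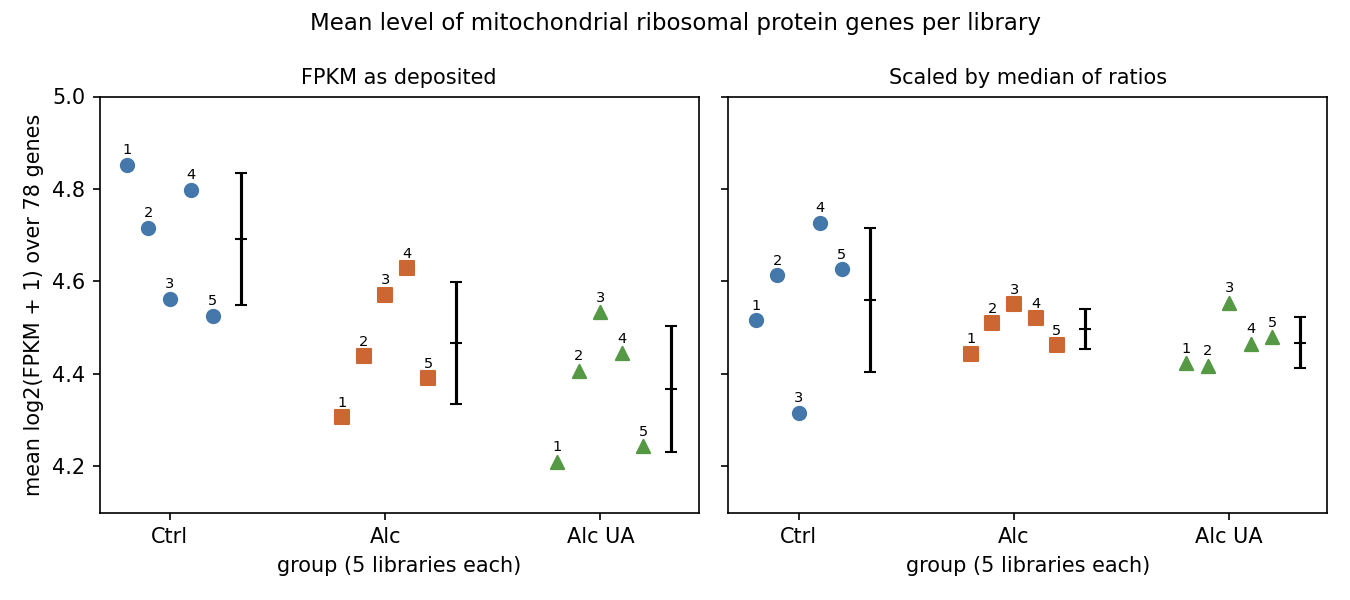
Mean log2(FPKM + 1) of the 78 mitochondrial ribosomal protein genes in each of the 15 libraries, as deposited and after median-of-ratios scaling, with group means and SD. The Ctrl mean of 4.69 stood above the Alc mean of 4.47 as deposited, whereas after scaling the Ctrl libraries spread from 4.32 to 4.73 around those of both alcohol groups.

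In Alc against Ctrl, 22 of the 78 genes fell and 2 rose on the deposited scale, in limma with Benjamini-Hochberg adjustment. The falls were 28.2% of the genes, beside 22.8% of all tested genes, and the rises 2.56%, beside 10.6%. With median-of-ratios scaling 12 fell and 6 rose, which is 15.4% and 7.69%, beside 15.3% and 20.1% of all tested genes. The share of falls was therefore close to the background on the scaled values and somewhat above it on the deposited ones, while the share of rises was below it on both. The median log2 fold change of the 78 genes was -0.22 as deposited and -0.05 after scaling, or 0.10 and 0.07 below that of all tested genes. Leaving out Alc 5 reduced the 22 falls to 12, and the calls over all tested genes from 3654 to 2571. Leaving out Ctrl 4 or Alc 1 reduced the 22 falls to 14. On the scaled values leaving out Ctrl 4 or Alc 5 left 7 falls, leaving out Ctrl 3 gave 22, and leaving out Ctrl 5 gave 11 rises. Calls over all tested genes on that scale went from 3878 to 2990 without Ctrl 4 and to 4453 without Ctrl 5. No gene was called in opposite directions on the 2 scales.

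On both scales 12 genes fell. They were Mrpl4, Mrpl21, Mrpl24, Mrpl33, Mrpl36, Mrpl52, Mrpl53 and Mrpl57 of the large subunit and Mrps6, Mrps14, Mrps28 and Mrps33 of the small subunit. On both scales 2 genes rose, Mrpl9 of the large subunit and Mrps27 of the small one. A further 10 genes fell on the deposited scale alone, namely Mrpl2, Mrpl20, Mrpl32, Mrpl34, Mrpl41, Mrpl51, Mrps10, Mrps22, Mrps25 and Mrps31. On the scaled values alone 4 genes rose, namely Mrpl3, Mrpl45, Mrpl49 and Mrps9.

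Promoters are shown for the 4 genes with the smallest limma p in Alc against Ctrl among those called on both scales that had a promoter entry. Mrpl4 had no entry and was passed over. Of the genes shown Mrpl9 rose and the others fell. Each line holds the 250 bases before the annotated start of transcription, on the plus strand of GRCm38.p6 as listed by RefSeq. They lie at chr13:73330759-73331008 for Mrpl36, chr3:87919294-87919543 for Mrpl24, chr6:83108858-83109107 for Mrpl53 and chr3:94443086-94443335 for Mrpl9. Capitals mark matches to the searched motifs on either strand, which were the NRF1 element (the palindrome in capitals in the Mrpl9 line), its core (the same letters without the first 2, contained in every such element), the ETS core CCGGAAG, the E-box CACGTG and the TATA box TATAAA.
Mrpl36: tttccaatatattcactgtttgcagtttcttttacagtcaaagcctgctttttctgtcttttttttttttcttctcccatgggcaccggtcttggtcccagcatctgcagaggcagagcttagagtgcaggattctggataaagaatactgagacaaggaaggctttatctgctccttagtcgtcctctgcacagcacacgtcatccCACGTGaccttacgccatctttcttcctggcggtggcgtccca
Mrpl24: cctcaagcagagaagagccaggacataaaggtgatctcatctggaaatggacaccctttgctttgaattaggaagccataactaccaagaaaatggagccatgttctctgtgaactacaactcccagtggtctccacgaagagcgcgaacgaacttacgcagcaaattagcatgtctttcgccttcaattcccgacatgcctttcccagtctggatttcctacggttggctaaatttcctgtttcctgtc
Mrpl53: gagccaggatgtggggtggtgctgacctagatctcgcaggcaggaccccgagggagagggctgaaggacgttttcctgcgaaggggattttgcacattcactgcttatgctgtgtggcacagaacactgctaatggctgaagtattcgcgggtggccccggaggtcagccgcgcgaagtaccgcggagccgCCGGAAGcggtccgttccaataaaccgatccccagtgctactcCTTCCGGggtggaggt
Mrpl9: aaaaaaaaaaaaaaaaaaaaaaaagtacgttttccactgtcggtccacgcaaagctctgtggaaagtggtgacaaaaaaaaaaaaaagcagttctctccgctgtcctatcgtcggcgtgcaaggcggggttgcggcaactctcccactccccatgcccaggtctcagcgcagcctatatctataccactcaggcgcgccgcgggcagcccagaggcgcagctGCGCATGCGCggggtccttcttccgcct
The window of Mrpl36 held an E-box that began 43 bases before the start, and that of Mrpl9 an NRF1 element 28 bases before it. The window of Mrpl53 held the ETS core in both orientations, 59 and 16 bases before the start, and that of Mrpl24 held none of these letter strings.

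Of the 78 genes 69 had such a promoter entry. The NRF1 element was present for 3 of them (4.35%), against 0.868% of all other listed genes and 1.93% of the other tested genes. Its core, counted also where it lay within the whole element, was present for 8 (11.6%), against 2.54% and 5.04%. The 3 genes with the whole element are among these 8. NRF1 is a transcription factor known for its targets among nuclear genes of mitochondrial proteins. The ETS core, to which the mitochondrial regulator GABP and other ETS factors bind, was present for 18 genes (26.1%), against 7.78% and 16.1%. The E-box was present for 5 genes (7.25%), against 6.86% and 10.1%, and the TATA box for 5 (7.25%), against 14.3% and 8.41%. The median GC content of the windows was 58.4% for these genes and 52.4% for the others. Of the 18 genes with an ETS core 5 fell and 1 rose in Alc against Ctrl as deposited, with a median log2 fold change of -0.26, and of the 51 without it 15 fell and 1 rose, with a median of -0.21. After scaling 2 fell and 2 rose with the core and 8 fell and 4 rose without it, with medians of -0.10 and -0.04. Of all tested genes 22.8% fell and 10.6% rose as deposited, and 15.3% and 20.1% after scaling. A letter match in these windows is a description and was not a measurement of binding.

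The largest fall was that of Mrpl36, the homologue of the smallest bacterial large-subunit protein, L36. Its level was 45.3, 31.5, 27.2, 37.8 and 26.3 FPKM in Ctrl 1 to 5, and 16.0, 18.2, 21.3, 21.6 and 15 FPKM in Alc 1 to 5. Every Alc library lay below every Ctrl library, on both scales. The log2 fold change was -0.82 ± 0.15 (limma adjusted p = 0.0015) as deposited and -0.66 ± 0.13 (adjusted p = 0.0015) after scaling. The mean in Alc was 54.7% of that in Ctrl.

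Mrpl4, homologue of bacterial L4, which reaches into the peptide exit tunnel, had 31.2, 28.7, 24.3, 26.02 and 18.9 FPKM in Ctrl 1 to 5. In Alc 1 to 5 it had 14.1, 14.8, 19.0, 16.6 and 13.6 FPKM. The groups overlapped as deposited, since Ctrl 5 was just below Alc 3, and were apart after scaling. Its log2 fold change was -0.68 ± 0.15 (limma adjusted p = 0.0033) as deposited and -0.52 ± 0.11 (adjusted p = 0.0026) after scaling.

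Mrpl24, homologue of bacterial L24, an early assembly protein near the tunnel exit in bacteria, had 94.2, 87.3, 78.4, 91.4 and 69.7 FPKM in Ctrl 1 to 5. In Alc 1 to 5 it had 52.8, 57.3, 65.0, 62.4 and 51.9 FPKM. Every Alc library was below every Ctrl library on both scales, and Mrpl24 was the most abundant of the genes that fell on both. Its log2 fold change was -0.53 ± 0.12 (limma adjusted p = 0.0046) as deposited and -0.36 ± 0.09 (adjusted p = 0.0076) after scaling. Mrpl21, homologue of bacterial L21, had 26.6 ± 3.63 FPKM in Ctrl and 18.7 ± 2.29 in Alc, without overlap as deposited and with overlap after scaling. It fell by 0.48 ± 0.12 on the log2 scale as deposited (limma adjusted p = 0.0070) and by 0.32 ± 0.12 after scaling (adjusted p = 0.042).

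Mrpl52, Mrpl53 and Mrpl57 are large-subunit proteins without a bacterial counterpart. Mrpl52 had 106, 86.7, 63.9, 88.8 and 60.3 FPKM in Ctrl 1 to 5 and 38.2, 55.9, 55.0, 56.7 and 43.2 FPKM in Alc 1 to 5. The groups were apart as deposited, although Ctrl 5 exceeded Alc 4 by little, and overlapped after scaling. Its log2 fold change was -0.68 ± 0.17 (limma adjusted p = 0.0067) as deposited and -0.51 ± 0.14 (adjusted p = 0.011) after scaling. Mrpl53 had 44.7, 42.7, 35.3, 50.9 and 33.9 FPKM in Ctrl 1 to 5 and 23.4, 28.1, 28.9, 34.6 and 26.3 FPKM in Alc 1 to 5. Only Alc 4 and Ctrl 5 crossed as deposited, and the log2 fold change was -0.53 ± 0.13 (limma adjusted p = 0.0060), or -0.37 ± 0.11 (adjusted p = 0.017) after scaling. Mrpl57, the weakest expressed of the 3, had 9.62 ± 2.35 FPKM in Ctrl and 5.93 ± 1.26 in Alc, with overlap on both scales. It fell by 0.61 ± 0.15 on the log2 scale as deposited (limma adjusted p = 0.0074) and by 0.46 ± 0.11 after scaling (adjusted p = 0.0057).

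In the small subunit the largest falls were those of Mrps6 and Mrps33. Mrps6, homologue of bacterial S6, had 17.9, 17.0, 14.4, 18.5 and 11.5 FPKM in Ctrl 1 to 5 and 8.50, 9.50, 11.02, 13.1 and 7.77 FPKM in Alc 1 to 5. Ctrl 5 lay inside the Alc range and the other Ctrl libraries above it. The log2 fold change was -0.62 ± 0.15 (limma adjusted p = 0.0063) as deposited and -0.46 ± 0.12 (adjusted p = 0.0075) after scaling. Mrps33, a mitochondria-specific protein of the small-subunit head, had 44.0 ± 11.7 FPKM in Ctrl and 27.97 ± 4.47 in Alc, and its groups overlapped through Ctrl 3. It fell by 0.61 ± 0.16 on the log2 scale as deposited (limma adjusted p = 0.011) and by 0.44 ± 0.14 after scaling (adjusted p = 0.020).

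Mrpl9 and Mrps27 moved the other way. Mrpl9, homologue of bacterial L9, which extends from the base of the L1 stalk, had 22.7, 24.7, 26.7, 22.4 and 28.5 FPKM in Ctrl 1 to 5. In Alc 1 to 5 it had 31.8, 30.9, 33.7, 30.1 and 33.5 FPKM. Every Alc library exceeded every Ctrl library as deposited, and the groups overlapped after scaling. The log2 fold change was 0.35 ± 0.08 (limma adjusted p = 0.0045) as deposited and 0.51 ± 0.11 (adjusted p = 0.0036) after scaling. Mrps27, a pentatricopeptide-repeat protein that binds RNA, had 7.61, 7.01, 9.51, 7.69 and 8.49 FPKM in Ctrl 1 to 5 and 9.44, 10.3, 11.9, 11.2 and 10.4 FPKM in Alc 1 to 5. Alc 1 was just below Ctrl 3 as deposited, and after scaling no libraries crossed. Its log2 fold change was 0.36 ± 0.09 (limma adjusted p = 0.0063) as deposited and 0.51 ± 0.09 (adjusted p = 8.2e-04) after scaling.

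Mrpl3 and Mrpl45 were called after scaling and not as deposited. Mrpl3, homologue of bacterial L3, which reaches towards the peptidyl transferase centre, had 10.4 ± 1.17 FPKM in Ctrl and 11.7 ± 0.596 in Alc. The log2 fold change was 0.16 ± 0.09 (limma adjusted p = 0.17) as deposited and 0.31 ± 0.09 (adjusted p = 0.014) after scaling. Mrpl45, which lies by the tunnel exit and anchors the ribosome to the inner membrane, had 11.2 ± 1.02 FPKM in Ctrl and 13.0 ± 1.38 in Alc. Its log2 fold change was 0.20 ± 0.10 (limma adjusted p = 0.15) as deposited and 0.35 ± 0.08 (adjusted p = 0.0047) after scaling, when the groups did not overlap. With library weights Mrpl45 was also called on the deposited values (limma adjusted p = 0.029).

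**Figure D2:**
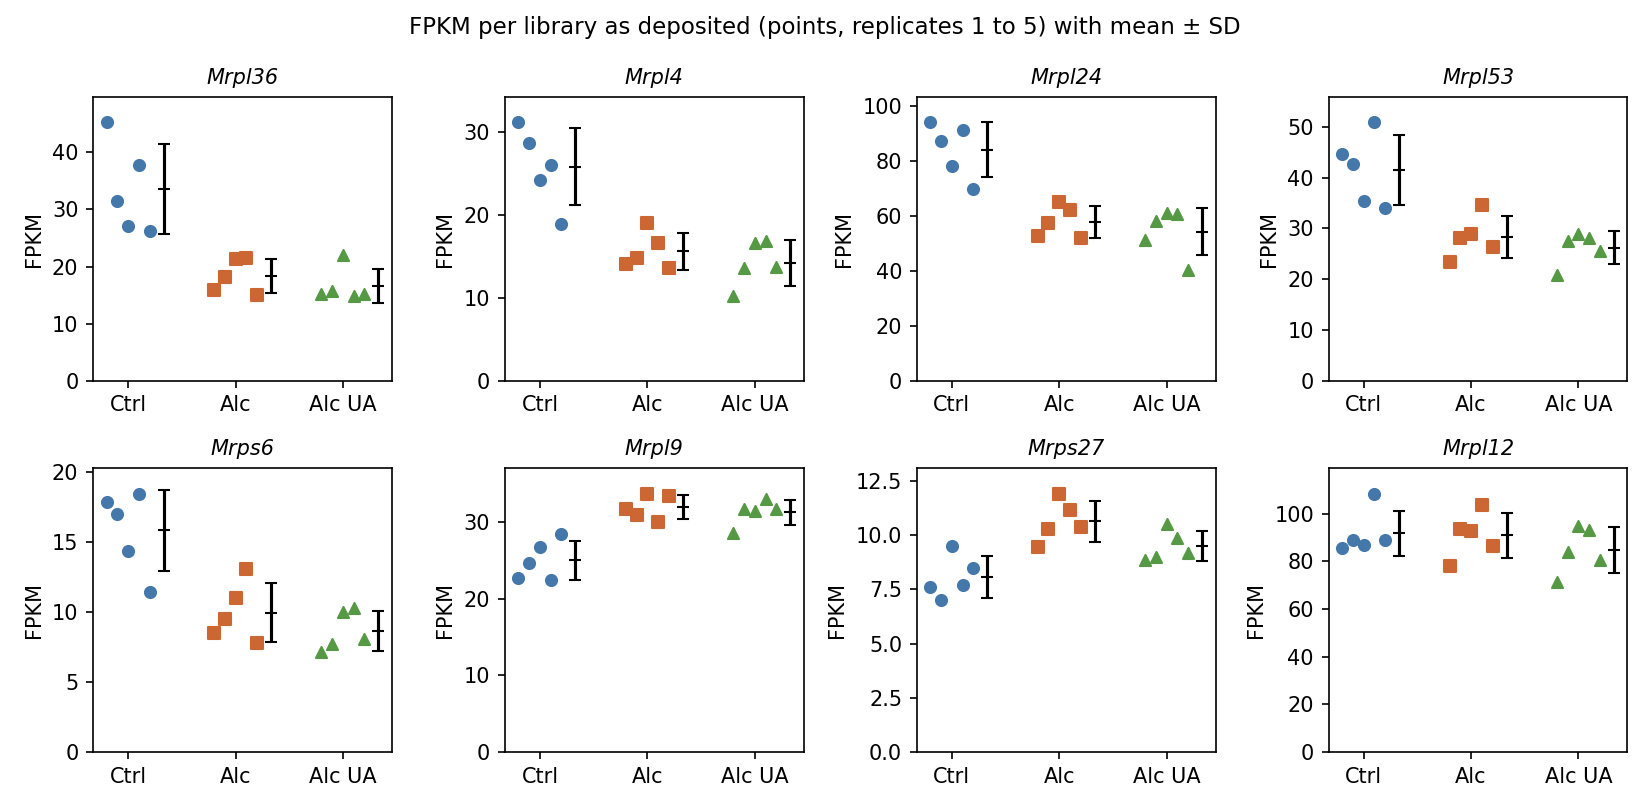
FPKM of Mrpl36, Mrpl4, Mrpl24, Mrpl53, Mrps6, Mrpl9, Mrps27 and Mrpl12 in each of the 15 libraries as deposited, by group, with the mean and SD of 5 libraries. Mrpl36 and Mrpl24 lay lower in every Alc library than in every Ctrl library, Mrpl9 lay higher in every Alc library, and the Mrpl12 groups overlapped.

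Other members with a particular role were mostly not called in Alc against Ctrl. Mrpl12 differed by -0.01 ± 0.10 (limma adjusted p = 0.93) as deposited and by 0.16 ± 0.11 (adjusted p = 0.28) after scaling. Mrpl44, which has a ribonuclease III fold, differed by -0.20 ± 0.10 (limma adjusted p = 0.11), or -0.04 ± 0.10 (adjusted p = 0.76) after scaling. Mrpl58, a ribosome-bound peptidyl-tRNA hydrolase, differed by -0.22 ± 0.12 (limma adjusted p = 0.16), or -0.06 ± 0.09 (adjusted p = 0.65) after scaling. Mrpl11, homologue of the stalk-base protein L11, differed by -0.04 ± 0.11 (limma adjusted p = 0.79), or 0.11 ± 0.10 (adjusted p = 0.41) after scaling. Mrps12, homologue of the decoding-centre protein S12, had 22.2 ± 4.50 FPKM in Ctrl, where Ctrl 1 was lowest with 14.7, and 25.8 ± 2.84 in Alc, a log2 difference of 0.23 ± 0.13 (limma adjusted p = 0.20). Mrps22 fell by 0.37 ± 0.12 on the log2 scale (limma adjusted p = 0.032), a call that ended after scaling (adjusted p = 0.084) and on leaving out any of Ctrl 1, Ctrl 2, Ctrl 4, Alc 1, Alc 2 or Alc 5 (adjusted p from 0.053 to 0.082). In humans, variants of MRPS22 and MRPS34 cause mitochondrial disease. Mrps34 differed by -0.27 ± 0.10 (limma adjusted p = 0.052) and was called lower on leaving out Ctrl 3, Ctrl 5, Alc 3 or Alc UA 3 (adjusted p from 0.030 to 0.049), and Mrps36 by -0.09 ± 0.19 (adjusted p = 0.74). The limma adjusted p of Mrps34 reached 0.13 over all fits without 1 library. Mrps25 fell by 0.35 ± 0.11 on the log2 scale (limma adjusted p = 0.021), which also ended after scaling (adjusted p = 0.091) and without Ctrl 1, Alc 1 or Alc 5 (adjusted p from 0.055 to 0.059).

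The 3 Mrps18 genes encode related proteins at separate places in the ribosome, Mrps18a in the large subunit and Mrps18b and Mrps18c in the small one. Mrps18c was counted as the homologue of bacterial S18 and the other two as mitochondria-specific, as in the nomenclature of ribosomal proteins. Mrps18c had the highest level, with 63.0 ± 8.89 FPKM in Ctrl and 50.8 ± 7.73 in Alc, followed by Mrps18b with 30.7 ± 5.95 and 24.4 ± 2.66. Mrps18a had 25.8 ± 2.003 FPKM in Ctrl and 27.4 ± 4.62 in Alc. None was called in Alc against Ctrl on either scale. As deposited, the log2 differences were -0.31 ± 0.12 for Mrps18c (limma adjusted p = 0.053), -0.31 ± 0.13 for Mrps18b (adjusted p = 0.080) and 0.07 ± 0.11 for Mrps18a (adjusted p = 0.65). Mrps18c was called lower on leaving out Ctrl 3, Ctrl 5, Alc 3 or Alc 4 (limma adjusted p from 0.021 to 0.039), and Mrps18b on leaving out Ctrl 5 (adjusted p = 0.045). Over all fits without 1 library the limma adjusted p reached 0.14 for Mrps18c and 0.21 for Mrps18b.

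By subunit, 14 of 51 large-subunit genes fell and 1 rose in Alc against Ctrl as deposited, with a median log2 fold change of -0.20, and 8 of 26 small-subunit genes fell and 1 rose, with a median of -0.28. After scaling the medians were -0.04 and -0.12, with 8 falls and 4 rises in the large subunit and 4 falls and 2 rises in the small one. By origin, 13 of 44 homologues of bacterial proteins fell and 1 rose as deposited, with a median of -0.24, against 9 falls and 1 rise among 33 mitochondria-specific proteins, with a median of -0.21. After scaling the homologues had 8 falls and 3 rises and a median of -0.08, and the others 4 falls and 3 rises and a median of -0.04. The falls made up 27.5% and 30.8% of the large and small subunit genes and 29.5% and 27.3% of the 2 classes by origin, beside 22.8% of all tested genes. After scaling they made up 15.7%, 15.4%, 18.2% and 12.1%, beside 15.3%. Rises were at most 3.85% in these classes as deposited, beside 10.6%, and at most 9.09% after scaling, beside 20.1%. Neither division was tested. The genes that fell and the genes that rose thus came from both subunits and both origins.

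**Figure D3:**
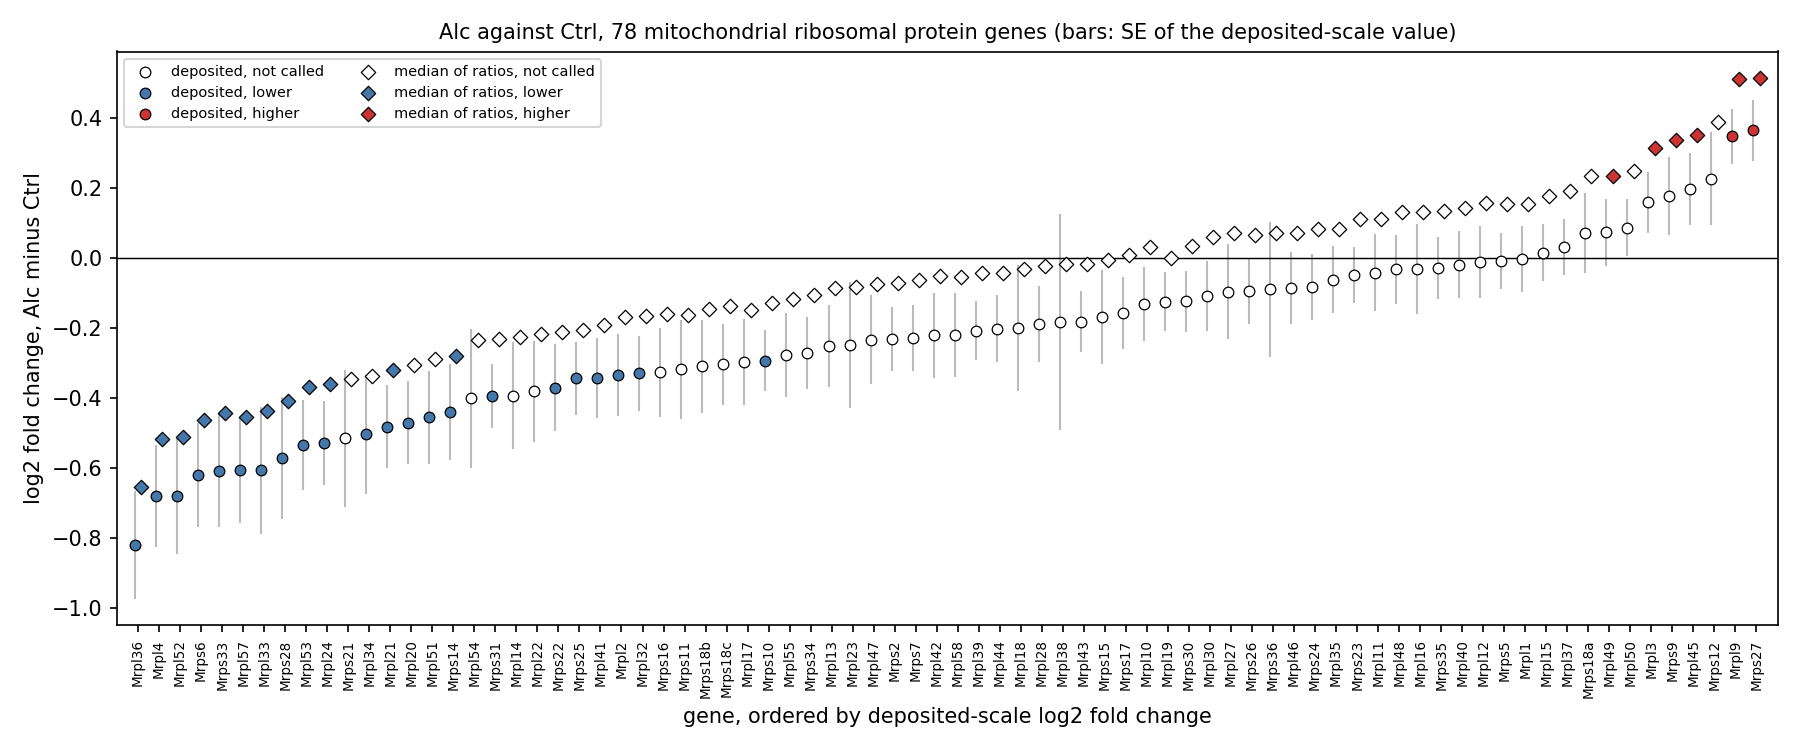
Log2 fold change of each of the 78 genes in Alc against Ctrl, ordered by the deposited value, as deposited (circles, with SE bars) and after median-of-ratios scaling (diamonds), filled where called. The values ran from -0.82 for Mrpl36 to 0.36 for Mrps27 as deposited, and scaling moved them up together, leaving 12 falls and adding 4 rises.

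The 78 genes were also divided by transcript length. Median annotated transcript lengths, from GENCODE vM21, ran from 440.5 to 6073 bases over the 78 genes, with a median of 1224.5 bases, against 2603 bases for all tested genes with a length. Of the 39 shorter genes 14 fell and 0 rose in Alc against Ctrl as deposited, with a median log2 fold change of -0.31. Of the 39 longer genes 8 fell and 2 rose, with a median of -0.13. After scaling the shorter genes had 8 falls and 0 rises and a median of -0.14, and the longer genes 4 falls and 6 rises and a median of 0.03. This division was chosen after the values were seen and was not tested.

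Other tested genes divided at the same length had, in Alc against Ctrl, like shares of falls and like medians, and larger shares of rises. Among 1386 shorter ones 36.7% fell and 4.04% rose as deposited, with a median of -0.31, beside 35.9% and 0% of the shorter mitochondrial ribosomal protein genes. Among 9275 longer ones 20.7% fell and 11.6% rose, with a median of -0.10, beside 20.5% and 5.13% of the longer members. After scaling 23.3% of the shorter other genes fell and 8.23% rose, with a median of -0.15, beside 20.5% and 0% of the shorter members. Of the longer other genes 14.0% fell and 22.1% rose after scaling, with a median of 0.04, beside 10.3% and 15.4% of the longer members. Across genes, which are not independent replicates, Spearman's rho between transcript length and log2 fold change was 0.40 over the 78 genes and 0.21 over 10661 other tested genes. Within a library, the mean log2 level of the shorter genes exceeded that of the longer ones by 0.64 to 0.91 in Ctrl, 0.52 to 0.71 in Alc and 0.51 to 0.66 in Alc UA. The Ctrl range overlapped both others, with Ctrl 1 highest at 0.91 and Ctrl 3 lowest at 0.64. Without Ctrl 1 the medians of the shorter and longer genes were -0.28 and -0.09 as deposited. The same division in Alc UA against Ctrl gave larger shares of falls among the members as deposited. There 66.7% of the shorter and 43.6% of the longer members fell, beside 53.4% and 28.7% of the other genes. After scaling these shares were 33.3% and 17.9%, beside 31.6% and 16.3%. The part of transcript length in the counts above was not tested.

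**Figure D4:**
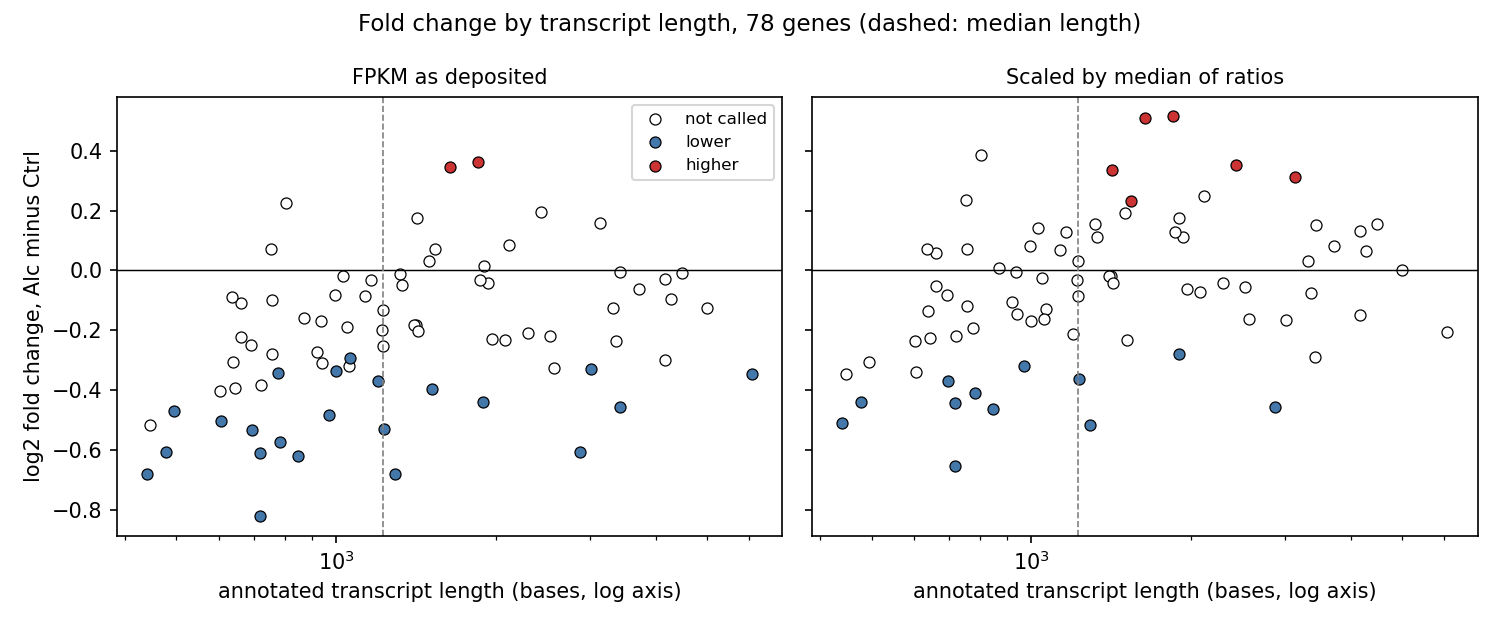
Log2 fold change in Alc against Ctrl plotted against annotated transcript length (log axis) for the 78 genes, as deposited on the left and after median-of-ratios scaling on the right, with filled points for called genes and a dashed line at the median length. Left of the line lay 14 falls and 0 rises as deposited and 8 falls and 0 rises after scaling, and all rises lay right of it.

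Between mice of 1 group the messengers varied together. After removing group means, the median Pearson correlation between pairs of the 78 genes over 15 libraries was 0.54 as deposited, with 90.9% of pairs positive, and 0.38 after scaling, with 85.2% positive. These genes share library, scaling and RNA quality, so the values are a description. The median SD within groups was 0.18 on the log2 scale, beside 0.20 for all tested genes, and ran from 0.10 for Mrpl9 to 0.55 for Mrpl38. On the scaled values the genes outside the set whose level followed the mean of the 78 genes most closely over 15 libraries were Psmb6 (Pearson r = 0.94), Slirp (0.89), Ndufb6 (0.89), Exosc7 (0.89) and Timm13 (0.89). Psmb6 encodes a catalytic proteasome subunit, Slirp a partner of Lrpprc in stabilising mitochondrial messengers, Ndufb6 a subunit of respiratory complex I, Exosc7 a subunit of the RNA exosome and Timm13 a chaperone of mitochondrial import.

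In Alc UA against Alc, which asks what UA added to the alcohol diet, 0 of the 78 genes rose and 0 fell in limma on either scale. Of all tested genes 0.00912% rose and 0% fell, a single gene on each scale. At an unadjusted p under 0.05 there were 4 of the 78 genes as deposited and 3 after scaling, beside 664 and 757 of all tested genes. The lowest adjusted p belonged to Mrpl49, a mitochondria-specific large-subunit protein, with a log2 difference of -0.31 ± 0.10 (limma adjusted p = 0.67), named after its value was seen. The median log2 difference of the 78 genes was -0.11 as deposited and -0.04 after scaling, or 0.06 and 0.05 below that of all tested genes.

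The genes called in Alc against Ctrl mostly overlapped between Alc UA and Alc. Mrpl36 had 15.2, 15.7, 22.0, 14.8 and 15.3 FPKM in Alc UA 1 to 5, where Alc UA 3 was the highest and all lay within or near the Alc range. Its log2 difference between Alc UA and Alc was -0.14 ± 0.15 (limma adjusted p = 0.90). Mrpl4 had 10.2, 13.6, 16.7, 16.9 and 13.7 FPKM in Alc UA 1 to 5, overlapping Alc, with a log2 difference of -0.14 ± 0.15 (limma adjusted p = 0.90). Mrpl9 had 28.6, 31.7, 31.5, 33.02 and 31.8 FPKM in Alc UA 1 to 5, also overlapping Alc, and a log2 difference of -0.03 ± 0.08 (limma adjusted p = 0.96). Mrpl3 lay higher in every Alc UA library than in every Alc library after scaling, with a log2 difference of 0.23 ± 0.09 that did not pass the test (limma adjusted p = 0.72). A p above the threshold does not show that the levels were equal.

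In Alc UA against Ctrl, 43 of the 78 genes fell (55.1%) and 3 rose (3.85%) as deposited, beside 32.1% and 10.5% of all tested genes. After scaling 20 fell (25.6%) and 7 rose (8.97%), beside 18.5% and 25.0%. The median log2 fold change was -0.34 as deposited and -0.11 after scaling, or 0.18 and 0.15 below that of all tested genes. This comparison uses the same Ctrl libraries as Alc against Ctrl, so the pair cannot serve as independent evidence of each other. On both scales 20 genes fell and 3 rose. The falls on both scales were those of Mrpl4, Mrpl21, Mrpl22, Mrpl24, Mrpl33, Mrpl34, Mrpl36, Mrpl41, Mrpl51, Mrpl52, Mrpl53 and Mrpl57, and of Mrps6, Mrps14, Mrps16, Mrps21, Mrps22, Mrps25, Mrps28 and Mrps33. Without Ctrl 1 and Ctrl 5 the scaled values gave 13 falls, and without Ctrl 5 they gave 11 rises. Without Ctrl 5 the scaled calls over all tested genes went from 4761 to 5242.

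Mrpl36 again had the largest fall, by 0.96 ± 0.15 on the log2 scale as deposited (limma adjusted p = 3.3e-04) and by 0.73 ± 0.13 after scaling (adjusted p = 5.5e-04), without overlap on either scale. Mrpl4 fell by 0.82 ± 0.15 as deposited (limma adjusted p = 7.0e-04) and Mrps6, whose level was 8.66 ± 1.42 FPKM in Alc UA, by 0.80 ± 0.15 (adjusted p = 9.3e-04), both without overlap on either scale. Mrps21, among the most abundant of the set, had 160, 103, 77.9, 104 and 74.9 FPKM in Ctrl 1 to 5 and 49.9, 53.0, 78.1, 57.2 and 53.9 FPKM in Alc UA 1 to 5. Alc UA 3 alone reached the Ctrl range, and the log2 fold change was -0.78 ± 0.20 (limma adjusted p = 0.0055) as deposited and -0.54 ± 0.16 (adjusted p = 0.014) after scaling. Mrps21 had not been called in Alc against Ctrl, where its log2 difference was -0.52 ± 0.20 (limma adjusted p = 0.053), though it was without Ctrl 3, Ctrl 5, Alc 4 or Alc UA 3 (adjusted p from 0.022 to 0.045). That difference was -0.35 without Ctrl 1, the library with 160 FPKM. Over all fits without 1 library its limma adjusted p reached 0.14. Mrpl57 and Mrps33 fell by 0.77 ± 0.15 (limma adjusted p = 0.0012) and 0.76 ± 0.16 (adjusted p = 0.0021).

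The 3 genes that rose in Alc UA against Ctrl on both scales were Mrpl3, Mrpl9 and Mrpl45. Mrpl45 had 12.9, 10.3, 11.2, 10.5 and 11.1 FPKM in Ctrl 1 to 5 and 12.8, 16.6, 16.6, 13.4 and 12.2 FPKM in Alc UA 1 to 5. Ctrl 1 lay inside the Alc UA range, and the log2 fold change was 0.32 ± 0.10 (limma adjusted p = 0.020) as deposited and 0.55 ± 0.08 (adjusted p = 1.9e-04) after scaling. Leaving out Ctrl 2, or Alc UA 2 or 3, took the deposited value past the threshold (adjusted p from 0.05004 to 0.055). Mrpl3 had 9.23, 11.2, 11.99, 9.44 and 10.4 FPKM in Ctrl 1 to 5 and 13.0, 14.5, 13.5, 14.3 and 11.2 FPKM in Alc UA 1 to 5. Alc UA 5 alone fell into the Ctrl range, and the log2 fold change was 0.32 ± 0.09 (limma adjusted p = 0.0087) as deposited and 0.55 ± 0.09 (adjusted p = 3.5e-04) after scaling. Mrpl9 rose by 0.32 ± 0.08 (limma adjusted p = 0.0052) as deposited, without overlap. Mrps27, which had risen in Alc, differed by 0.22 ± 0.09 (limma adjusted p = 0.058) as deposited and rose after scaling by 0.43 ± 0.09 (adjusted p = 0.0018), or without Ctrl 3 as deposited (adjusted p = 0.021). Over all deposited-scale fits without 1 library its limma adjusted p reached 0.15.

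Among the members with a particular role, Mrps34 fell by 0.41 ± 0.10 (limma adjusted p = 0.0060), Mrpl58 by 0.40 ± 0.12 (adjusted p = 0.015) and Mrps18c by 0.38 ± 0.12 (adjusted p = 0.016) in Alc UA against Ctrl as deposited. Mrpl44 fell by 0.28 ± 0.10 (limma adjusted p = 0.029), which was lost on leaving out Ctrl 1 or Ctrl 4 of the controls, or Alc UA 1, 2 or 5 (adjusted p from 0.057 to 0.075). None of these 4 was called after scaling (limma adjusted p from 0.14 to 0.72). Mrps12 was called only after scaling, when it rose by 0.48 ± 0.16 (limma adjusted p = 0.022). As deposited it differed by 0.25, and by 0.11 without Ctrl 1, its lowest Ctrl library at 14.7 FPKM. Mrpl12, Mrpl11, Mrps18a, Mrps18b and Mrps36 were not called on either scale, with log2 differences of -0.11 ± 0.10, -0.14 ± 0.11, 0.02 ± 0.11, -0.24 ± 0.13 and -0.45 ± 0.19 as deposited, although Mrps36 was called lower without Ctrl 5 (limma adjusted p = 0.013). Without Ctrl 1 Mrps36 differed by -0.28, and over all fits without 1 library its limma adjusted p reached 0.19. At the extremes of level, Mrpl18 differed by -0.46 ± 0.18 and was not called (limma adjusted p = 0.050). It was called lower without Ctrl 4, Ctrl 5 or Alc UA 4 (limma adjusted p from 0.022 to 0.045). Without Ctrl 1, its highest Ctrl library, the difference was -0.25. Over all fits without 1 library its limma adjusted p reached 0.11. Mrpl19 and Mrpl35 differed by -0.16 ± 0.08 (adjusted p = 0.13) and -0.19 ± 0.10 (adjusted p = 0.11).

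Other genes of mitochondrial translation, from lists chosen with earlier results of these data known, moved in both directions in Alc against Ctrl. Their counts stand beside 22.8% of all tested genes that fell and 10.6% that rose as deposited, and 15.3% and 20.1% after scaling. Of 5 further mitoribosomal subunits outside the symbol rule 2 fell and 0 rose as deposited, and 1 fell and 2 rose after scaling. The 2 falls became 1 without Ctrl 1, 2 or 4, Alc 1, 2 or 5, or Alc UA 2 or 4. Gadd45gip1, a large-subunit protein, fell from 19.5 ± 4.42 to 10.5 ± 1.98 FPKM, by 0.82 ± 0.17 on the log2 scale as deposited (limma adjusted p = 0.0026) and by 0.66 ± 0.14 after scaling (adjusted p = 0.0026). Dap3, a guanine-nucleotide-binding protein of the small subunit, had 24.1 ± 3.31 and 28.2 ± 3.59 FPKM and rose only after scaling (limma adjusted p = 0.013). Of 28 assembly and ribosomal RNA modification genes 6 fell (21.4%) and 1 rose (3.57%) as deposited, and 3 fell and 3 rose after scaling (10.7% each). Without Alc 1 there were 3 falls as deposited, and the rise was lost on leaving out any library of Alc, Ctrl 1, 4 or 5, or Alc UA 2. Ngrn, which binds the mitochondrial large ribosomal RNA, fell by 0.52 ± 0.11 as deposited (limma adjusted p = 0.0031) and by 0.36 ± 0.11 after scaling (adjusted p = 0.017).

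Among 16 translation factors 4 rose and 4 fell as deposited (25% each), and 4 rose (25%) and 0 fell after scaling. The 4 rises became 2 without Ctrl 1, Ctrl 2, Alc 4 or Alc 5, and the 4 falls became 1 without Ctrl 4 or Alc 1 and 2 without Ctrl 1, Ctrl 2, Alc 2 or Alc 5. Taco1, a translational activator of the mitochondrial Cox1 messenger, rose from 7.05 ± 2.23 to 11.9 ± 0.921 FPKM, with a log2 fold change of 0.72 ± 0.15 (limma adjusted p = 0.0024). Lrpprc, which stabilises mitochondrial messengers, rose by 0.33 ± 0.08 (limma adjusted p = 0.0066), while its partner Slirp fell by 0.47 ± 0.14 as deposited (adjusted p = 0.020) and was not called after scaling (adjusted p = 0.097). Of 19 mitochondrial aminoacyl-tRNA synthetase genes 4 rose (21.1%) and 1 fell (5.26%) as deposited, and 7 rose (36.8%) and 1 fell (5.26%) after scaling, and the fall became 2 without Ctrl 2, Ctrl 5, Alc 3 or Alc 4. As deposited, Lars2 was up by 0.34 ± 0.09 (limma adjusted p = 0.0091) and Tars2 down by a log2 fold change of -0.40 ± 0.11 (adjusted p = 0.012), and both were called after scaling too (adjusted p = 0.0036 and 0.028).

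Of 26 genes of mitochondrial DNA transcription and replication 2 rose (7.69%) and 7 fell (26.9%) as deposited, and 5 rose (19.2%) and 4 fell (15.4%) after scaling. The 7 falls became 3 without Alc 5 and 4 without Ctrl 1, Ctrl 2, Alc 1 or Alc 2, and the 2 rises became 1 without Ctrl 2, Ctrl 4 or Alc 2. Twnk, the mitochondrial helicase, fell by 0.50 ± 0.11 (limma adjusted p = 0.0036), Ssbp1, the mitochondrial single-strand binding protein, by 0.57 ± 0.14 (adjusted p = 0.0072) and Polrmt, the mitochondrial RNA polymerase, by 0.36 ± 0.09 (adjusted p = 0.010). Gabpa, the DNA-binding subunit of GABP, rose by 0.28 ± 0.08 (limma adjusted p = 0.015). These 4 genes were called after scaling as well (limma adjusted p from 0.0047 to 0.025). Of 76 genes for proteins of the cytosolic ribosome 35 fell (46.1%) and 1 rose (1.32%) as deposited, and 9 fell (11.8%) and 1 rose (1.32%) after scaling, with median log2 fold changes of -0.38 and -0.21, beside -0.22 and -0.05 for the mitochondrial ribosome. The 35 falls became 8 without Alc 5, 10 without Ctrl 4, 13 without Ctrl 2 or Alc 1, 14 without Ctrl 1 and 55 without Ctrl 5, and the rise was lost without Ctrl 1, 2, 3 or 5 or Alc 2, 4 or 5. Rpl18, of the cytosolic large subunit, fell from 308 ± 65.7 to 199 ± 21.3 FPKM, by 0.61 ± 0.14 on the log2 scale (limma adjusted p = 0.0043), and by 0.44 ± 0.14 after scaling (adjusted p = 0.025). In Alc UA against Alc 0 genes of these 6 lists were called by limma on either scale, and as deposited 3 cytosolic ribosomal protein genes, 1 assembly gene and 1 gene of mitochondrial DNA transcription and replication had an unadjusted p under 0.05. Of the symbols searched for messengers encoded by mitochondrial DNA, the templates of this ribosome, 0 were among the 18510 rows. These messengers were therefore not analysed here.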

How the data were processed

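Liver RNA of 15 mice was extracted with phenol and chloroform and sequenced on an MGISEQ instrument, per the labels' protocols. FPKM values of 18510 gene symbols were deposited as a single table. Of the tools used, the submitters' processing notes list DESeq, StringTie, RSEM 1.2.8, Bowtie2 2.2.5 and HISAT2 2.1.0, with no statement of what each did. Genome build, annotation and strandedness of counting: not given in the sources used here. Depth is therefore unknown, and reads of overlapping genes cannot be told apart. By RefSeq, 25 of the 78 genes overlap another annotated gene, among them Mrpl24, Mrpl53, Mrps6 and Mrps27, and 4 have named pseudogenes. Columns were matched to mice by group letter and replicate number.

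Values were analysed as log2(FPKM + 1) for the 10959 rows that reached 1 FPKM in 5 or more libraries. All 3 groups entered a single limma model (limma 3.58.1, R 4.3.3), with a trended variance prior, 12 residual degrees of freedom and Benjamini-Hochberg adjustment at 0.05 within each of 3 comparisons. Median-of-ratios factors used 13900 rows above 0 in every library. The fit was tested on simulated data. Nothing in the labels beyond the word mice says that samples of a group were housed or fed separately, so p-values measure the spread between these animals. The members, lists and rules were chosen with earlier results of these data known. Named were up to 6 rises and 6 falls per comparison, up to 6 genes called on both scales, the 4 highest and 4 lowest levels, members with a distinct role, up to 4 genes per list and the genes most like the member mean. Of the list genes a part is printed, and other genes named are said to be so. Alternatives were other scalings, pseudocount, filter, variance prior, library weights, fits on 2 groups, the replicate number as a block, and leaving libraries out. The division by transcript length (GENCODE vM21) and the alternatives on the scaled values were added after seeing the data. Promoters were read from RefSeq, GRCm38.p6. Plots were made in Python 3.11.15 with matplotlib 3.10.9.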

Additional observations from a re-analysis of the deposited data

Results flagged for a closer look

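Within groups of 5 libraries, 7 of 93 combinations of a group with a named gene or with the mean of the 78 genes had a single library far from the others. For independent values chance gives about 1 in 20. These genes varied together and 4 of the 7 cases came from Alc UA 3, so that rate is no measure for them. In Ctrl, Mrpl12 stood at 108 FPKM in Ctrl 4 with the others between 85.5 and 89.0, Mrpl18 at 139 FPKM in Ctrl 1 with the others between 59.4 and 72.3, and Mrps25 at 6.04 FPKM in Ctrl 1 with the others between 4.54 and 4.87. In Alc UA, the library Alc UA 3 was the high one for 4 genes. It had 21.7 FPKM of Mrpl21 with the others between 14.7 and 15.8, 22.0 FPKM of Mrpl36 with the others between 14.8 and 15.7, 78.1 FPKM of Mrps21 with the others between 49.9 and 57.2, and 13.6 FPKM of Mrps36 with the others between 10.99 and 11.5. Alc UA 3 also had the highest mean log2 level of the 78 genes in its group, 4.53.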

How the results depend on the processing

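For Alc against Ctrl, the 2 rises among the 78 genes became 6 with median-of-ratios scaling and 5 with quantile normalization. The 22 falls became 12 with median-of-ratios scaling, 12 when FPKM sums were made equal, and 44 under library weights, which also raised the calls over all genes from 3654 to 5870. With median-of-ratios scaling the falls over all tested genes went from 22.8% to 15.3% and the rises from 10.6% to 20.1%. Such shares are not given for quantile normalization or equal sums, where the 78 genes cannot be set beside all genes. For Alc UA against Ctrl, median-of-ratios scaling gave 7 rises and 20 falls, and without a filter the median of the 78 genes lay 0.27 below that of all genes, a value of -0.27 against -0.18. All 78 genes passed the filter, so only the median of all genes changed there. On the scaled values without Ctrl 1 and Ctrl 5, falls numbered 7 in Alc and 13 in Alc UA, and the shares of all tested genes are not given. For Alc UA against Alc the single gene called became 2 with equal sums or without Ctrl 1 and Ctrl 5, 3 with library weights and 0 with the 2 groups alone. Why the counts moved was not tested. Same-numbered libraries did not in general deviate together (15 correlations from -0.30 to 0.29, 5 over 0.1). Those of replicate 5 were all positive, at 0.24 for Ctrl and Alc, 0.29 for Ctrl and Alc UA and 0.11 for Alc and Alc UA. With the replicate number as a block, falls numbered 26 in Alc and 45 in Alc UA, rises 2 and 4, calls over all genes 3554, 4534 and, for Alc UA against Alc, 0. Leaving out 1 library at a time, Alc against Ctrl gave 2 to 2 rises, 12 to 33 falls, 2571 to 4515 calls over all genes and a median relative to all genes of -0.15 to -0.06. Alc UA against Alc gave 0 to 0 rises and falls, 1 to 5 calls over all genes and medians of -0.09 to -0.05. Alc UA against Ctrl gave 2 to 4 rises, 32 to 50 falls, 3835 to 5374 calls and medians of -0.23 to -0.13. On the scaled values these ranges were 4 to 11 rises, 7 to 22 falls, 2990 to 4453 calls and -0.13 to -0.04 in Alc, 0 members and 1 to 2 calls with -0.08 to -0.04 in Alc UA against Alc, and 6 to 11 rises, 14 to 27 falls, 4036 to 5242 calls and -0.20 to -0.10 in Alc UA against Ctrl. For the named genes, 2095 combinations of gene, comparison and alternative kept their side of the threshold, 32 lost a call and 48 gained 1. A change of direction with a call in either fit occurred in 0. Changes of sign without a call, such as that of Mrpl12 in Alc against Ctrl, were counted as kept. Read depth is unknown, so no counting error can be given.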

Other observations

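Mrpl38, a large-subunit protein without a bacterial ribosomal counterpart, varied more within groups than any other of the 78 genes and was named after its values were seen. Its level was 45.6, 44.7, 43.4, 40.4 and 37.4 FPKM in Ctrl 1 to 5, 45.4, 31.9, 40, 35.97 and 33.3 FPKM in Alc 1 to 5, and 33.3, 124, 35.3, 88.7 and 29.6 FPKM in Alc UA 1 to 5. Only Alc UA 2 and Alc UA 4 stood above the other 13 libraries. The log2 difference between Alc UA and Alc was 0.49 ± 0.31 (limma adjusted p = 0.83). Among the genes outside the set, those most like Mrpl38 over the 15 libraries were Rnmt (Pearson r = 0.92), Zbtb10 (0.92), Klf6 (0.90) and Tsc22d2 (0.89), values that rest on the same pair of libraries. Klf6, an early-response transcription factor, had 31.0 FPKM in Alc UA 2 and 15.5 in Alc UA 4, against 2.72 to 6.30 in the other Alc UA libraries, 2.22 to 6.52 in Alc and 3.47 to 7.35 in Ctrl.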
